A study of Mus musculus with 12 samples.

Results

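The Toll-like receptors of cultured mouse macrophages are described here: Tlr1, Tlr2, Tlr3, Tlr4, Tlr5, Tlr6, Tlr7, Tlr8, Tlr9 and Tlr13. These 10 genes were taken by symbol, not by their values, from the 23438 genes of the deposited table. Earlier results of these data were known when they were chosen. The cells were bone marrow derived macrophages (BMDMs), grown from primary marrow of atherosclerotic C57 mice and collected at day 7 of differentiation. RNA sequencing compared 7 wild-type (WT) libraries with 5 libraries of a knockout (KO) of Baf60a, the gene now named Smarcd1, which encodes a subunit of SWI/SNF chromatin remodelling complexes. Every library came from cells in the same differentiation treatment, and no receptor ligand is named in the labels. The sources used here do not say how the knockout was made, in which cells it acts, how atherosclerosis was induced, how old the mice were or whether each library is a separate mouse. The p-values therefore weigh differences against the spread among these libraries only, and that spread may be technical.

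Toll-like receptors are membrane proteins whose leucine-rich repeats bind microbial molecules and whose intracellular TIR domain recruits adaptor proteins. Those at the cell surface (Tlr1, Tlr2, Tlr4, Tlr5 and Tlr6) recognise lipoproteins, lipopolysaccharide and flagellin, while those in endosomes (Tlr3, Tlr7, Tlr8, Tlr9 and Tlr13) recognise nucleic acids. Through Myd88 or Trif they activate NF-kappaB and interferon regulatory factors, and in macrophages of the arterial wall they are known as triggers of inflammatory gene expression.

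Levels are given as TPM, a relative transcript abundance corrected for gene length, so levels of different genes can be set side by side. TPM keeps no read depth, so how many reads a value rests on cannot be given. Smarcd1 itself was between 11.6 and 15.6 TPM in the 7 WT libraries and between 5.99 and 7.58 TPM in the 5 KO libraries. It fell by 0.88 on the log2(TPM + 1) scale (SE 0.0801, limma adjusted p = 0.00074, n = 7 and 5). WT replicates 2, 3 and 4 stood apart from all other libraries, as earlier work on these data had shown. In them the summed level of 4 smooth muscle markers was 3154 to 8284 TPM and that of 8 fibroblast markers 870 to 1999 TPM, against at most 420.3 and 191 TPM in the other 9 libraries. Their summed level of 10 macrophage markers was 7847 to 26960 TPM, a range that overlapped the other 9 libraries, and the KO (15870 to 16390 TPM) lay below WT replicates 1, 5, 6 and 7 (25530 to 29360 TPM). Without Lyz2, the lysozyme gene, WT replicates 2, 3 and 4 had 2614 to 5417 TPM of the other 9 markers, below the other 9 libraries, and the KO (10540 to 11110 TPM) overlapped the 4 WT libraries (10890 to 13230 TPM). The 10 neutrophil markers summed to 79.3 to 109 TPM in these WT replicates and to 1005 to 6263 TPM elsewhere. All 10 macrophage markers reached 1 TPM on average, but so did all 10 neutrophil, all 4 smooth muscle and 7 of 8 fibroblast markers. Of the B cell, T cell and dendritic cell markers, 2 of 6, 1 of 6 and 0 of 8 did. Because WT replicates 2, 3 and 4 stood apart, the KO was compared with all 7 WT libraries, and also with the 4 WT libraries numbered 1, 5, 6 and 7.

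Tlr1 and Tlr6, the partners with which Tlr2 pairs to read triacylated and diacylated lipoproteins, are neighbours on chromosome 5 (mm10, minus strand), with 18467 bases between them. Of the 51-base words of Tlr1 transcripts, the length of the reads, 13.5% also occur in Tlr6, so the division of reads between these 2 genes is uncertain. The longest coding stretch that the transcripts Tlr1-201 (chr5:64925525-64925777) and Tlr6-201 (chr5:64953816-64954068) share, 229 identical bases, is shown with 12 bases on each side, from GENCODE M21 transcripts. Capitals mark the 2 positions at which the stretches differ:
Tlr1: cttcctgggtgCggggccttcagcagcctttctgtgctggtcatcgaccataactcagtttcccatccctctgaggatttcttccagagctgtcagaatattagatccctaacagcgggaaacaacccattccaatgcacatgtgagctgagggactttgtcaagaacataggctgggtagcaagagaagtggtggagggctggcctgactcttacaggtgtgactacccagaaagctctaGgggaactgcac
Tlr6: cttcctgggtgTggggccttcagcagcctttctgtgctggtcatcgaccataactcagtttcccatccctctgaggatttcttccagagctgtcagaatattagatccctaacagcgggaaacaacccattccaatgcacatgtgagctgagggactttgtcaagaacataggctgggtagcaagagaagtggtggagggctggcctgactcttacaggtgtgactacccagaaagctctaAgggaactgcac
A read that falls within the lower-case run of 229 bases cannot be assigned to either gene by its sequence alone. For the other 8 receptors the share of such words found in another gene was at most 5.26%, in Tlr3.

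Tlr13, which recognises bacterial ribosomal RNA (chrX:106143204-106160493, plus strand, mm10), was the most abundant receptor in every library. It was at 184, 116, 124, 80.6, 186, 221 and 174 TPM in WT replicates 1 to 7, and at 196, 201, 189, 190 and 212 TPM in KO replicates 1 to 5. The KO libraries lay within the range of WT replicates 1, 5, 6 and 7, and WT replicates 2, 3 and 4 lay below every other library. Only 7.32% of the 11152 tested genes had a higher mean level than Tlr13 over the 12 libraries. Next came Tlr2, Tlr7 and Tlr8, with means of 40.6, 34.0 and 29.2 TPM, then Tlr4 at 19.0, Tlr6 at 10.6, Tlr1 at 6.60, Tlr3 at 4.92 and Tlr9 at 4.78 TPM. Tlr5, the flagellin receptor, lay between 0.32 and 0.95 TPM, below 1 TPM in all 12 libraries, and was not tested.

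The order of the levels in the KO was Tlr13, Tlr8, Tlr2, Tlr7, Tlr4, Tlr6, Tlr1, Tlr3, Tlr9 and Tlr5. In WT replicates 1, 5, 6 and 7 it was Tlr13, Tlr2, Tlr7, Tlr8, Tlr4, Tlr6, Tlr1, Tlr3, Tlr9 and Tlr5, so only the places of Tlr2, Tlr7 and Tlr8 differed. Neighbours in this order did not always separate: in the KO the ranges of Tlr8 and Tlr2, of Tlr2 and Tlr7, of Tlr1 and Tlr3, and of Tlr3 and Tlr9 overlapped. In the 4 WT libraries the overlapping neighbours were Tlr2 and Tlr7, Tlr7 and Tlr8, and Tlr3 and Tlr9. Tlr6 was above Tlr1 in 12 of 12 libraries.

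**Figure D1:**
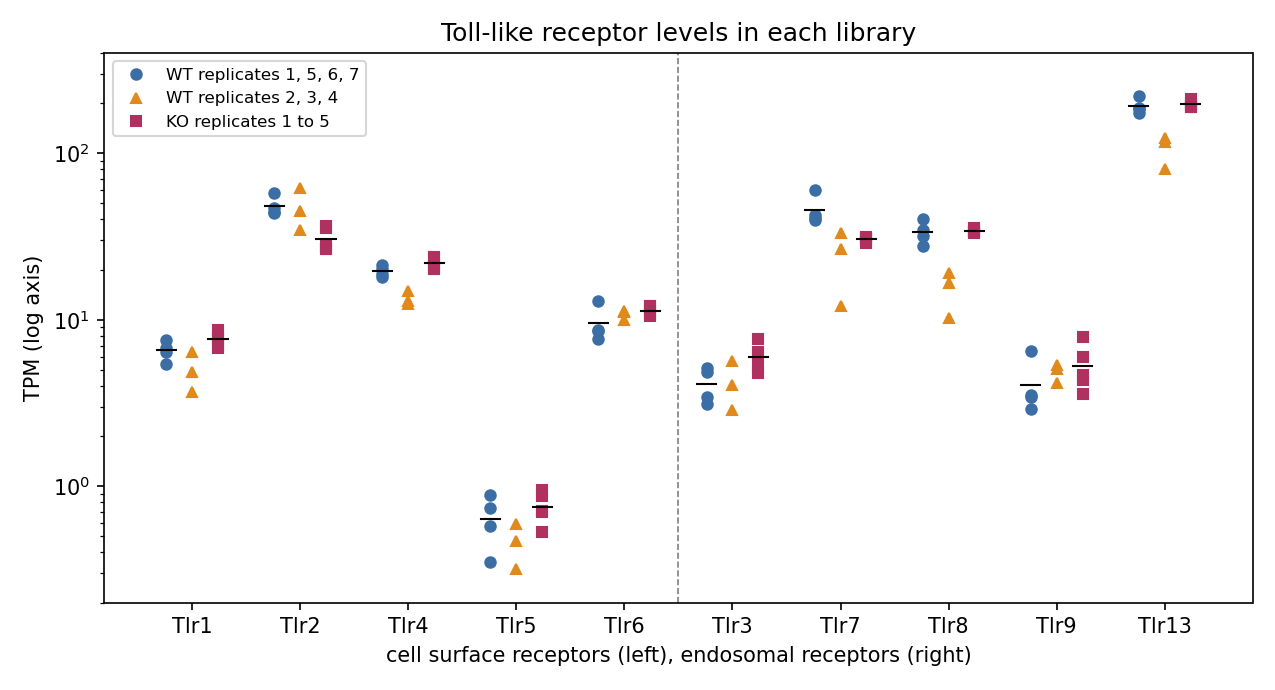
TPM of each receptor (log axis) in every library: WT replicates 1, 5, 6 and 7 as blue circles, WT replicates 2, 3 and 4 as orange triangles, KO as crimson squares, with black bars at the means of the 4 WT and the 5 KO libraries. Tlr2 and Tlr7 in the KO lie below the 4 WT libraries, and Tlr13 is the highest receptor throughout.

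For KO against WT over all 12 libraries, limma was run on log2(TPM + 1) with p-values adjusted over all 11152 tested genes. None of the 9 tested receptors passed an adjusted p of 0.05, where 0.126% of all tested genes did (0.108% upward and 0.0179% downward); 4 of the 9 (Tlr1, Tlr2, Tlr3 and Tlr4) had an unadjusted p under 0.05, as had 1954 of all tested genes. Without WT replicates 2, 3 and 4 (9 libraries), Tlr2 and Tlr7 fell and none rose, 2 of 9 receptors beside 2.33% of all tested genes in either direction, 1.61% upward and 0.717% downward. Over all tested genes these were 180 higher and 80 lower, and with median-ratio scaling 83 higher and 137 lower, while Tlr2 and Tlr7 passed under both. By range alone, none of the 9 receptors in the KO lay outside that of all 7 WT libraries, beside 3.56% of all tested genes (2.92% higher, 0.637% lower). Tlr2 and Tlr7 in the KO lay below, and no receptor lay above, the 4 WT libraries, where 2.08% of all tested genes lay below, 7.09% above and 9.17% in either direction. The medians of the receptors' log2 fold changes with 9 libraries were 0.17 for the 4 tested surface receptors and 0.05 for the 5 endosomal receptors, beside 0.05 over all tested genes. With all 12 libraries they were 0.26 and 0.42, beside 0.04 over all tested genes.

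Tlr2, the lipoprotein receptor (chr3:83836272-83841767, minus strand, mm10, GENCODE M21), was at 44.7, 44.96, 62.1, 34.5, 46.8, 57.5 and 44.0 TPM in WT replicates 1 to 7. In KO replicates 1 to 5 it was at 36.7, 27.6, 26.7, 35.4 and 26.5 TPM. Every KO library lay below WT replicates 1, 5, 6 and 7, while WT replicate 4, at 34.5 TPM, lay within the KO range. Against the 4 WT libraries (48.2 ± 6.30 TPM, SD, n = 4) the KO (30.6 ± 5.06 TPM, SD, n = 5) was at 0.639 of the WT level, and the fold change on the log2 scale was -0.65 (SE 0.121, limma adjusted p = 0.0285). Against all 7 WT libraries the log2 fold change was -0.62 (SE 0.141, limma adjusted p = 0.142). The 9-library call was lost without WT replicate 1, 5 or 7 or KO replicate 2 or 3, with limma adjusted p of 0.0626 to 0.0750, at log2 fold changes of the same sign. It was also lost with no filter on low values (adjusted p = 0.0704) and with submission order as a covariate (0.0577). Here and below, submission order stands for 2 blocks, submission numbers 1 to 5 and 6 to 12, a cut that is not in the labels.

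Within the KO, the 2 libraries with the most Tlr2, replicates 1 and 4, were also those with the highest summed level of 10 neutrophil markers, 6263 and 4378 TPM. The other KO libraries had 2107, 1917 and 1005 TPM of these markers, and the 4 WT libraries 1195 to 1547 TPM. Tlr9 was highest in the same 2 KO libraries, at 7.83 and 6.01 TPM, beside 3.58 to 4.63 TPM in the other KO libraries. So were Tlr4, at 23.1 and 23.9 TPM beside 20.2 to 21.0 TPM, and Tlr5, at 0.95 and 0.87 TPM beside 0.53 to 0.71 TPM. Tlr1, Tlr3, Tlr6, Tlr7, Tlr8 and Tlr13 did not have their highest KO values in these libraries alone. The part of the neutrophil markers in these values was not tested. In bulk RNA, fewer cells of a type and less RNA per cell cannot be told apart.

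The other surface receptors did not pass the test in either fit. Tlr4, the lipopolysaccharide receptor (chr4:66827584-66930284, plus strand), was at 18.9, 14.97, 12.4, 13.0, 20.2, 21.3 and 17.9 TPM in WT replicates 1 to 7 and at 23.1, 20.8, 20.2, 23.9 and 21.0 TPM in the KO. The KO range overlapped that of WT replicates 1, 5, 6 and 7, and WT replicates 2, 3 and 4 lay below every other library. Its log2 fold change was 0.37 (SE 0.132, limma adjusted p = 0.233) with 12 libraries and 0.15 (SE 0.0661, adjusted p = 0.262) with 9. Tlr6 was at 7.70 to 13.0 TPM in the 7 WT libraries (median 9.96) and at 10.5 to 12.2 TPM in the KO. Tlr1 was at 3.68 to 7.56 TPM in the 7 WT libraries (median 6.40) and at 6.72 to 8.72 TPM in the KO. Neither differed between genotypes by an adjusted p of 0.05, with limma adjusted p of 0.301 for Tlr6 and 0.316 for Tlr1 with 9 libraries. The summed level of Tlr1 and Tlr6 was 14.0 to 19.4 TPM in WT and 17.4 to 20.1 TPM in the KO, so the ranges overlapped.

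Tlr7, which recognises single-stranded RNA (chrX:167304929-167330558, minus strand), was at 42.4, 26.5, 33.2, 12.2, 39.7, 59.8 and 41.0 TPM in WT replicates 1 to 7. In the KO it was at 31.0, 30.1, 29.0, 31.6 and 31.2 TPM, values close to one another. The KO libraries lay below WT replicates 1, 5, 6 and 7 and between the values of WT replicates 2, 3 and 4. The level in these 4 WT libraries was 45.7 ± 9.43 TPM (SD, n = 4). The 9-library log2 fold change was -0.55 (SE 0.107, limma adjusted p = 0.0331), a fold of 0.684 on the TPM + 1 scale. With all 12 libraries it was -0.12 (SE 0.294, limma adjusted p = 0.795), and it turned to 0.02 without WT replicate 6. The 9-library call was lost without WT replicate 1 or 7 or without KO replicate 2, 3, 4 or 5 (limma adjusted p 0.0543 to 0.0815), with no filter on low values (0.0751) and with submission order as a covariate (0.0667).

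Tlr8, an RNA receptor closely related to Tlr7 and its neighbour on the X chromosome with 40599 bases between them (chrX:167242696-167264329, minus strand), was at 34.7, 16.6, 19.2, 10.3, 31.8, 40.1 and 27.8 TPM in WT replicates 1 to 7. In the KO it was at 34.0, 35.6, 34.0, 33.7 and 33.3 TPM. The KO values lay within the range of the 4 WT libraries, and WT replicates 2, 3 and 4 lay below all others. Its log2 fold change was 0.03 (SE 0.0872, limma adjusted p = 0.879) with 9 libraries and 0.51 (SE 0.279, adjusted p = 0.32) with 12.

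Tlr3, which recognises double-stranded RNA, was at 2.87 to 5.62 TPM in the 7 WT libraries (median 4.04) and at 4.80 to 7.67 TPM in the KO. The ranges overlapped, and the log2 fold change with 9 libraries was 0.46 (SE 0.155, limma adjusted p = 0.15). Tlr9, the receptor of CpG DNA, was at 2.89 to 6.47 TPM in WT (median 4.18) and at 3.58 to 7.83 TPM in the KO, with limma adjusted p = 0.503 for 9 libraries. Markers of dendritic cells and B cells, which also use Tlr7 and Tlr9, were low: 7 of 8 dendritic cell markers and 4 of 6 B cell markers were below 1 TPM in all 12 libraries. Their sums were 0.7 to 1.36 and 3.86 to 4.82 TPM in the KO, 0.55 to 0.92 and 2.8 to 4.51 TPM in the 4 WT libraries, and 1.51 to 2.52 and 12.2 to 13.0 TPM in WT replicates 2, 3 and 4. For Tlr13 the KO differed by 0.05 on the log2 scale (SE 0.067, limma adjusted p = 0.723) with 9 libraries and 0.42 (SE 0.213, adjusted p = 0.311) with 12.

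**Figure D2:**
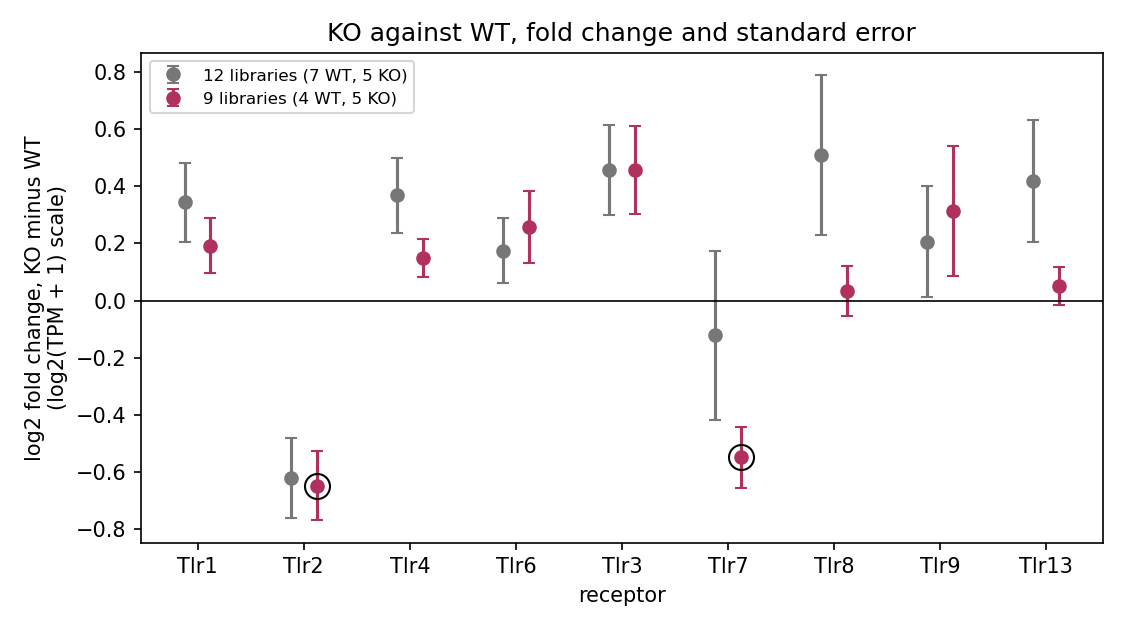
Log2 fold change of each tested receptor, KO minus WT on the log2(TPM + 1) scale, with 12 and with 9 libraries; bars are standard errors from limma and black rings mark adjusted p under 0.05 with 9 libraries. Tlr2 is near -0.6 in both fits, while Tlr7 is at -0.12 with 12 libraries and -0.55 with 9.

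Ratios between receptors of the same library do not depend on the scaling of that library. The ratio of Tlr7 to Tlr8 was 1.18 to 1.73 in the 7 WT libraries and 0.846 to 0.937 in the 5 KO libraries. The ratio of Tlr2 to Tlr4 was 2.32 to 5.01 in WT and 1.26 to 1.59 in the KO. In both ratios all KO libraries lay below all WT libraries, WT replicates 2, 3 and 4 included. These 2 ratios were chosen after the values had been seen and were not tested. For counts over pairs, ratios were taken as differences of log2(TPM + 1). With this pseudocount they are not wholly free of scaling and are smaller for low genes. Of the 36 such ratios between pairs of tested receptors, 7 did not overlap between KO and all 7 WT libraries. Among these 7, 6 involve Tlr2 and the other is that of Tlr7 to Tlr8. Over the ratios of all pairs of tested genes, taken in the same way, 2.61% did not overlap.

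**Figure D3:**
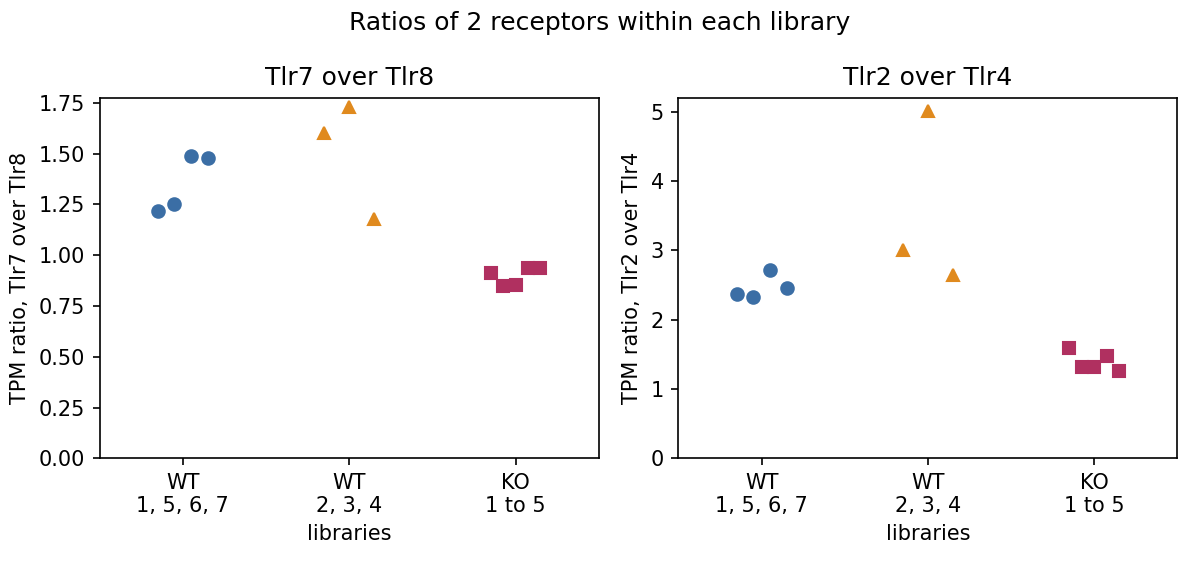
Ratios of TPM between receptors, one point per library, coloured by group as in the plot of levels. The KO libraries lie at 0.846 to 0.937 for Tlr7 over Tlr8 and at 1.26 to 1.59 for Tlr2 over Tlr4, below all 7 WT libraries.

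The endosomal receptors together held most of the receptor transcripts. Their sum was 262 to 287 TPM in the KO, 249 to 332 TPM in WT replicates 1, 5, 6 and 7, and 170, 185 and 111 TPM in WT replicates 2, 3 and 4. The surface receptors summed to 65.6 to 80.4 TPM in the KO, 76.5 to 95.9 TPM in the 4 WT libraries, and 76.6, 91.2 and 62.9 TPM in WT replicates 2, 3 and 4. The ratio of the endosomal to the surface sum was 3.33 to 4.37 in the KO and 3.22 to 3.46 in the 4 WT libraries, ranges that overlapped. In WT replicates 2, 3 and 4 this ratio was 2.22, 2.03 and 1.77, below the other 9 libraries. Tlr13 alone supplied 54.7% to 60.3% of the receptor transcripts in the KO and 51.6% to 53.8% in the 4 WT libraries. Without Tlr13 the ratio was 0.961 to 1.13 in the KO and 0.95 to 1.16 in the 4 WT libraries, so the surface and the remaining endosomal receptors were at similar summed levels. In WT replicates 2, 3 and 4 it was 0.488 to 0.702.

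**Figure D4:**
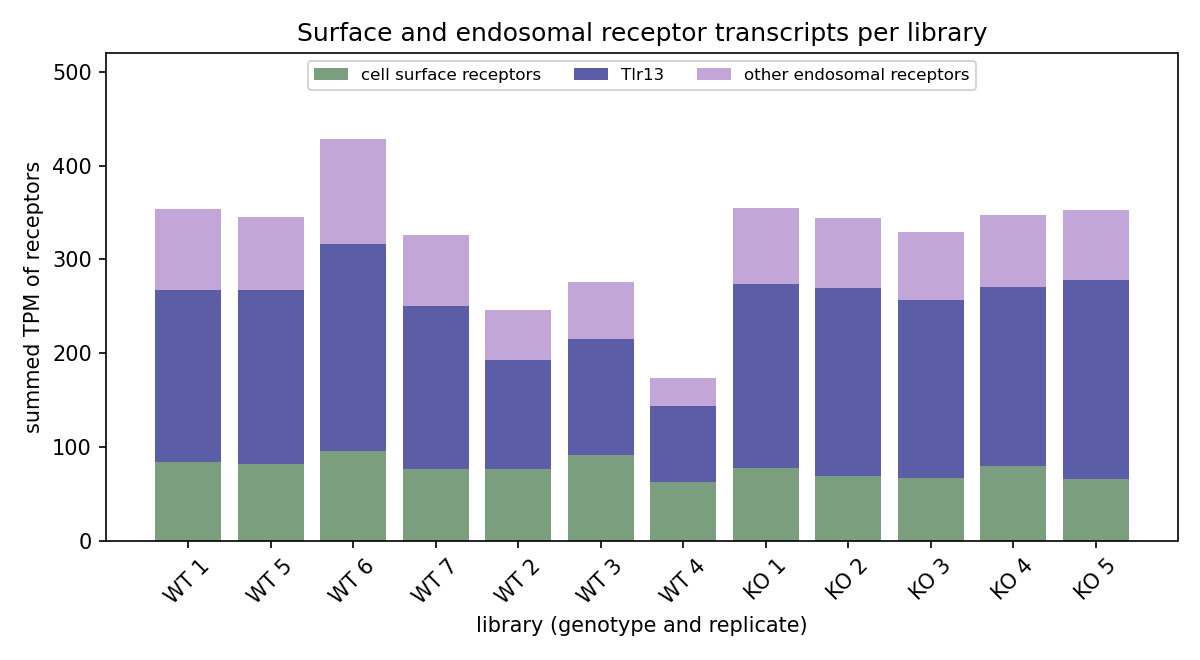
Summed TPM of the 5 surface and the 5 endosomal receptors in each library, as stacked bars. Colours mark receptor classes: surface receptors in green, Tlr13 in blue and the other endosomal receptors in light purple. The endosomal sums of WT replicates 2, 3 and 4 (111 to 185 TPM) lie below those of the other 9 libraries (249 to 332 TPM), while their surface sums (62.9 to 91.2 TPM) overlap the rest.

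WT replicates 2, 3 and 4 lay below the other 4 WT libraries in 4 of the 9 tested receptors: Tlr4 at the surface, and Tlr7, Tlr8 and Tlr13 in endosomes. Of all tested genes, 28.3% lay below in the same way, 29.9% lay above and 58.2% did not overlap in either direction. Tlr4, Tlr8 and Tlr13 were also below the 5 KO libraries, that is below all other 9 libraries, where 25.5% of all tested genes were; 23.6% were above them, and 49.1% were outside them in either direction. Tlr1, Tlr2, Tlr3, Tlr6 and Tlr9 overlapped the other WT libraries, and Tlr2 in WT replicate 3 (62.1 TPM) was its highest value of all 12 libraries. WT replicate 4 was the lowest of the 12 libraries for Tlr1, Tlr7, Tlr8 and Tlr13. It also had the highest levels of the smooth muscle and fibroblast markers and the lowest summed level of the macrophage markers, with or without Lyz2. The neutrophil markers were also lower in WT replicates 2, 3 and 4 than in the other 9 libraries. The smooth muscle, fibroblast and neutrophil marker sums thus set WT replicates 2, 3 and 4 apart from the other 9 libraries, as did Tlr4, Tlr8 and Tlr13. Within these 3 libraries Tlr4 was at 14.97, 12.4 and 13.0 TPM in WT replicates 2, 3 and 4. Their smooth muscle sums were 4364, 3154 and 8284 TPM in the same order. Tlr7, Tlr8 and Tlr13 were highest of the 3 in WT replicate 3 and lowest in WT replicate 4. The part of the marker levels in the receptor levels was not tested. The split of the WT libraries was seen in the data and is not in the labels, so it was not tested.

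The proteins that work with the receptors were followed in 6 lists of 51 genes, of which 48 could be tested. Sarm1 and Socs1 were below the filter, and Relb was not analysed here. None passed with 12 libraries, beside 0.126% of all tested genes. An unadjusted limma p under 0.05 was found for 18 of the 48, and for 1954 of all 11152 tested genes. With 9 libraries 1 rose and 1 fell, beside 2.33% of all tested genes (1.61% upward and 0.717% downward). Among 6 co-receptors, Cd14, which hands lipopolysaccharide to Tlr4, rose. It was at 323, 81.8, 77.4, 59.95, 354, 482 and 315 TPM in WT replicates 1 to 7 and at 507 to 525.96 TPM in the KO. All KO libraries were above all WT libraries, and WT replicates 2, 3 and 4 were far below the rest. The log2 fold change was 0.51 (SE 0.109, limma adjusted p = 0.0458) with 9 libraries, 1.42-fold, and 1.497 (SE 0.524, adjusted p = 0.231) with 12. Leaving out single libraries from the 9 gave limma adjusted p between 4.9e-04 and 0.134, and the call was kept in 1 of these 9 fits, that without WT replicate 6. It was also lost with median-ratio scaling (adjusted p = 0.0737), with no filter (0.0965) and with submission order as a covariate (0.0756). Among the pathway genes, Ly96, Cd36 and Cyld in the KO also lay above all 7 WT libraries. Irak2, Ikbkg, Nfkb2 and Nfkbia lay below them. Of all tested genes, 2.92% lay above and 0.637% below in the same way. Ly96, Cd36, Cyld, Irak2 and Nfkb2 were named after their values were seen.

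Among 14 kinases and ubiquitin ligases of the pathway, Ikbkg, the regulatory subunit of the IkappaB kinase complex, fell. It was at 97.5, 147, 144, 117, 90.2, 84.2 and 96.1 TPM in WT replicates 1 to 7, and at 67.1, 71.8, 80.3, 69.5 and 75.1 TPM in the KO. All KO libraries were below all WT libraries. The log2 fold change was -0.33 (SE 0.0613, limma adjusted p = 0.0266) with 9 libraries and -0.57 (SE 0.141, adjusted p = 0.156) with 12. Ikbkg overlaps G6pdx on the X chromosome and shares 3.89% of its 51-base words with it, so its level is uncertain. The 9-library call was lost without WT replicate 1, 5 or 7 or KO replicate 2 or 4 (limma adjusted p 0.0592 to 0.0895), with no filter (0.0589) and with submission order as a covariate (0.0575).

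No gene passed in the other 4 lists with 9 libraries. These lists hold 9 folding, trafficking and processing factors, 5 tested adaptors, 7 tested transcription factors and 7 tested negative regulators. Ctsb and Ctsl, endosomal proteases that trim receptor ectodomains, were at 7910 ± 679 and 2385 ± 392 TPM in the 4 WT libraries (SD, n = 4) and at 8491 ± 1058 and 3241 ± 1082 TPM in the KO (SD, n = 5). Myd88, the adaptor shared by nearly all Toll-like receptors, was at 48.7 ± 3.96 TPM in the 4 WT libraries and 51.1 ± 3.73 TPM in the KO, with limma adjusted p = 0.635. Pik3ap1, an adaptor to PI3 kinase, was at 190 ± 37.3 and 218 ± 10.5 TPM. Irf5 and Irf3, transcription factors activated downstream, had 9-library log2 fold changes of -0.05 and -0.01. Nfkbia, the inhibitor of NF-kappaB, had -0.32 (limma adjusted p = 0.0951), and Tollip, which dampens receptor signalling, had 0.05.

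In WT replicates 2, 3 and 4, 23 of the 48 pathway genes lay below and 12 above WT replicates 1, 5, 6 and 7, beside 28.3% and 29.9% of all tested genes. The negative regulators were the list with most members above, 6 of 7. Nfkbia had levels of 137 to 184 TPM there, and of 77.3 to 99.2 TPM in WT replicates 1, 5, 6 and 7. Of genes chosen after their values were seen, Ly86 and Cd180, which form a receptor complex on B cells and macrophages, were at 7.23 to 20.9 and 62.4 to 114 TPM there, against 104 to 162 and 133 to 172 TPM in the other 9 libraries. Unc93b1, the chaperone that carries endosomal receptors out of the endoplasmic reticulum, was at 138 to 223 TPM against 253 to 351 TPM. Tnfaip3, a ubiquitin-editing enzyme that limits NF-kappaB signalling, was at 44.4 to 51.9 TPM against 11.2 to 22.5 TPM.

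**Figure D5:**
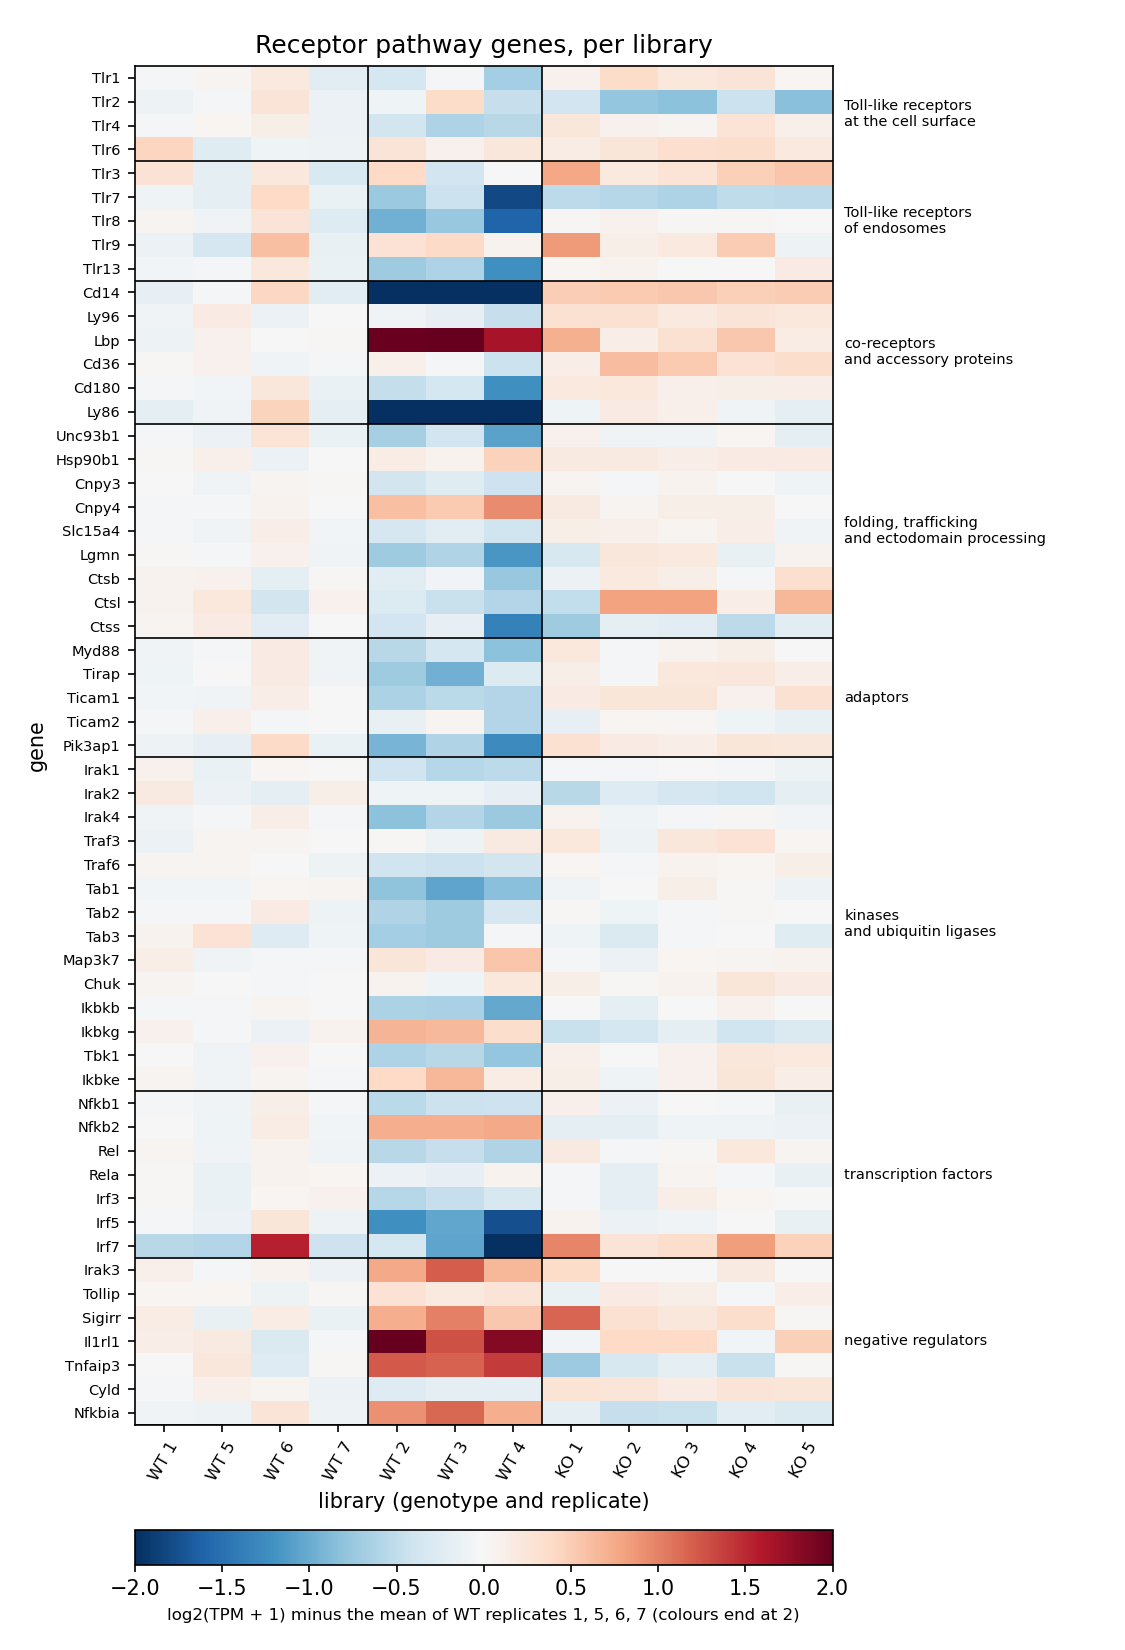
Log2(TPM + 1) of the receptors and pathway genes in each library minus the mean of WT replicates 1, 5, 6 and 7. In WT replicates 2, 3 and 4, Cd14 and Ly86 are low and Tnfaip3 and Nfkbia are high.

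For the 7 receptors whose log2(TPM + 1) ranged over at least 1 across the 12 libraries, tested genes with the most alike profile were sought. The measure was the root mean square difference of gene-centred values over these 12 libraries. Predicted genes, names with Gm or Rik and pseudogenes were left out of the search. Nearest to Tlr13 were Lair1, Cd48 and Cd300c2, with differences of 0.0798, 0.0803 and 0.0846. Nearest to Tlr8 were Cd93 (0.087), Tmem106a and Ucp2, and nearest to Tlr7 were Fcer1g (0.185), Bst2 and Slc9a9. Tlr2 was nearest to March1 (0.187), Ptger2 and B9d2, Tlr1 to Sesn1 (0.0732), Rgs18 and Vsir, Tlr3 to Zfp971 (0.192), Ccdc92 and Inpp1, and Tlr9 to Limd2 (0.183), Smpdl3b and H2-Q4. Among the genes searched, the profile of Tlr7, with the widest range of 2.21, thus had none as near as those of Tlr8 and Tlr13. Profiles over 12 libraries hold the split of the WT libraries. Lair1, for one, was at 51.6 to 93.0 TPM in WT replicates 2, 3 and 4 and at 127 to 156.5 TPM in the other 9 libraries.

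Promoter windows of equal length around the annotated starts were found for 8 of the 10 receptors in RefSeq (GRCm38.p6), 10 windows in all, and not for Tlr4 and Tlr7. They were searched on both strands for GAGGAA, found in sites of the macrophage regulator PU.1, an ETS factor. Other forms of ETS sites were not searched for. A core of NF-kappaB sites, GGG and TTCC with any 3 bases between them, was searched for in the same way. GAGGAA was in windows of Tlr1, Tlr8, Tlr9 and Tlr13, 4 of the 10 receptor windows, and in 28.3% of all 32851 windows. The NF-kappaB core was in those of Tlr2, Tlr3 and Tlr6, 3 of the 10 receptor windows, and in 5.6% of all windows. The part upstream of the first annotated start is shown for Tlr8 and Tlr13, the 2 endosomal receptors that were lowest in WT replicates 2, 3 and 4, and the 30 bases around the match for Tlr2, which fell in the KO. The spans are chrX:167264330-167264579 (minus strand) for Tlr8, chrX:106143025-106143203 (plus strand) for Tlr13 and chr3:83841762-83841791 (minus strand) for Tlr2, and capitals mark the match:
Tlr8: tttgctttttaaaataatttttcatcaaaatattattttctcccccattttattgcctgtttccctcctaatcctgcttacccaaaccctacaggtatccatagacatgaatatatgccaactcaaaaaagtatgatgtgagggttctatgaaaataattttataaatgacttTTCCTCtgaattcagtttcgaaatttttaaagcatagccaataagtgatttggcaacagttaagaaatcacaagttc
Tlr13: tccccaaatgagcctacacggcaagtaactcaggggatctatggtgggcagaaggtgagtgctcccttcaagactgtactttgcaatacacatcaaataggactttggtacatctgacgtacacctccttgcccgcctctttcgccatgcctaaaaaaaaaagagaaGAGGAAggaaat
Tlr2: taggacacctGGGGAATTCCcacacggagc
The capitals in Tlr8 read as the reverse complement of GAGGAA. A match describes the letters only and was not tested for binding.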

How the data were processed

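Total RNA of 12 libraries (7 WT, 5 KO) was read in pairs of 51 bases, per the labels' protocols. Salmon 1.2.0, bcl2fastq and the build mm10 are named in the submitters' processing notes; which annotation and strand setting were used is not stated in the sources used here. A table deposited by the authors holds TPM values for 23438 gene IDs, of which 23423 matched a symbol in GENCODE M21 (GRCm38). A library's TPM over the listed genes summed to 940127 to 947987, so a rise of abundant transcripts lowers all other values. Salmon divides reads between genes that share sequence. No libraries held identical values.

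The receptors, the pathway and marker lists and the split of the WT libraries were chosen with earlier results of these data known. Differences were tested with limma-trend (limma 3.58.1, R 4.3.3) on log2(TPM + 1), a pseudocount of 1, over the 11152 genes that reached 1 TPM in 5 or more libraries, with genotype as the only term. P-values were Benjamini-Hochberg adjusted over all tested genes, with a threshold of 0.05. The scale understates changes of low genes. The script was tested on simulated data. Fits without WT replicates 2, 3 and 4 used the same genes. Errors of levels are SDs and of fold changes SEs. Named genes were Smarcd1, the receptors, every pathway gene past the threshold, otherwise up to 2 members per list with the highest mean TPM, and for each receptor ranging over at least 1 the 3 genes with the most alike profile. Genes named outside this rule are stated as chosen after their values were seen. Alternatives were the scaling, filter, pseudocount, sample weights, submission order as a covariate, a replicate block and leaving out libraries. Submission order was fitted as 2 blocks, numbers 1 to 5 and 6 to 12, and not as a trend. The labels do not give this cut.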

Additional observations from a re-analysis of the deposited data

How the results depend on the processing

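With 12 libraries, no tested receptor passed the threshold, and none did under another scaling, no filter, a pseudocount of 0.1, submission order as a covariate or without any 1 library (0 to 0). The number that passed was 2 (Tlr2 and Tlr7) with sample weights and 2 without WT replicates 2, 3 and 4. With 9 libraries the count was 2, and also 2 with median-ratio scaling, the pseudocount of 0.1 and sample weights. It was 0 with no filter, 0 with submission order as a covariate, and 0 to 2 without 1 library. Both genotypes have replicate numbers 1 to 5, and the labels do not say what a number stands for. Deviations of same-numbered libraries from their genotype means correlated positively in 3 pairs and negatively in 2 (0.222, 0.204, 0.135, -0.224 and -0.181 over 11152 genes). These values cannot show or exclude pairing, because the WT deviations hold the split of WT replicates 2, 3 and 4. Libraries of different numbers were also not compared. As the labels give no pairing, the numbers were not taken to pair the libraries. With the replicate block the count was 0 over 10 libraries and 0 over the 4 libraries of numbers 1 and 5, and without the block over the same 4 libraries, a fit added after seeing the data, it was 0. Under the block no gene at all was called with 10 libraries, and 13 were called without it.

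Tlr2 kept its negative sign in every alternative. Some log2 fold changes that had not passed the threshold turned in sign, from 12-library values of -0.12 (Tlr7), 0.52 (Irf5), 0.18 (Irf3) and -0.06 (Tollip), and from 9-library values of 0.03 (Tlr8), 0.38 (Ctsl), -0.05 (Irf5), -0.01 (Irf3) and 0.05 (Tollip). With 12 libraries Tlr7 was 0.10 with the replicate block and 0.10 over those 10 libraries without it, and -0.352 to 0.0159 without 1 library. Without WT replicates 2, 3 and 4, Irf5 was -0.0535, Irf3 -0.0128 and Tollip 0.0476, and Tollip was 0.0275 with sample weights. With 9 libraries Tlr8 was -0.0135 with median-ratio scaling, and without 1 library Tlr8 was -0.0517 to 0.12, Irf3 -0.059 to 0.0335 and Irf5 -0.0915 to 0.0273. Irf3 was 0.0024 with submission order as a covariate. Over the 4 libraries, with and without the block, Ctsl was -0.0607, Irf5 0.0371, Irf3 0.0463 and Tollip -0.0361. The causes were not tested.

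Over all genes, 14 were called with 12 libraries and 260 with 9. Median-ratio scaling gave 4 and 220, and turned the 9-library split from 180 higher and 80 lower to 83 higher and 137 lower. With no filter, 12 and 167 were called, with sample weights 759 and 758, with submission order 3 and 132, and without 1 library 2 to 36 and 51 to 462. TPM holds no depth, so counting error of the low receptors Tlr5, Tlr3, Tlr9 and Tlr1 is unknown.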

Other observations

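WT replicate 6 had the highest value of the 7 WT libraries in 7 of the 10 receptors: Tlr1, Tlr4, Tlr5, Tlr7, Tlr8, Tlr9 and Tlr13. The share of all tested genes that were highest in WT replicate 6 was not counted, so this cannot be called a trait of the receptors. Irf7, an interferon-induced transcription factor that acts downstream of Tlr7 and Tlr9, was at 96.7 TPM in WT replicate 6. The remaining 6 WT libraries had 4.51 to 25.2 TPM, and the KO libraries 39.0 to 64.9 TPM. Irf7 was looked at after its values were seen. Without WT replicate 6, Tlr2 and Tlr7 still passed the threshold in the comparison of the KO with WT replicates 1, 5 and 7.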
